A study of Mus musculus with 8 samples.

Results

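The cell cycle of 3T3-L1, mouse fibroblasts that differentiate into fat-storing adipocytes on induction, was described from 40 of its genes. They comprised 15 genes of DNA replication, 20 genes of the G2 phase and mitosis, and 5 genes that control the step from G1 into S phase. The members were found by matching their symbols to the Ensembl gene IDs of the deposited count matrix. All 40 were present among its 49585 genes, and all 40 were among the 15255 genes with enough counts to be tested. The rule used no measured value, but the list was drawn up with earlier results of these data known.

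RNA was sequenced from 8 libraries in 4 groups of 2, each collected on day 7. The 3D induced group consisted of spheroids grown in hanging drops of 28 µL, seeded with about 20000 cells, and treated with an adipogenic mixture. The 3D uninduced group consisted of spheroids without the mixture, the 2D induced group of flat cultures with it, and the 2D uninduced group of flat cultures without it. The mixture held troglitazone, an agonist of the nuclear receptor PPARγ, at 10 µM and insulin at 1 µg/ml. Dexamethasone (250 nM) and triiodothyronine (10 nM) were present in the first 2 days only. All 4 groups shared high-glucose DMEM with calf serum and Methocel. 3T3-L1 is a single immortalised line, and the labels do not say how many spheroids went into a library or whether the libraries of a group came from separate cultures. The p-values below therefore measure the spread between these libraries, which may be technical.

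Replication begins when ORC, Cdc6 and Cdt1 load the Mcm2 to Mcm7 helicase on DNA in G1, and the E2F factors, set free when cyclin D and cyclin E kinases phosphorylate the retinoblastoma protein, switch on the genes of S phase. A later wave of genes, driven by B-Myb, FoxM1 and the MuvB complex, supplies the cyclins, kinases and spindle proteins of mitosis. In flat 3T3-L1 cultures, contact-inhibited preadipocytes are known to re-enter the cycle for a few rounds of division after hormonal induction before they differentiate. The day of collection lies after that early window.

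Levels are given as CPM, counts scaled to a common library size after TMM, a factor that corrects for differences in RNA composition. The libraries held 11839374 to 21169390 counts, and 1 CPM stood for 11.2 to 20.1 counts. The smallest count of any member in any library was 62 (Cenpf in 3D induced replicate 2). The members together took 0.149 to 0.236% of a library's counts. Replicate libraries were close in flat cultures and far apart in induced spheroids: the biological coefficient of variation over all tested genes was 0.327 in 3D induced, 0.111 in 3D uninduced, 0.0473 in 2D induced and 0.0469 in 2D uninduced cultures. The 3D induced libraries differed in the summed levels of marker genes too, though not every marker moved with its sum, as given below. The summed level of 8 adipocyte markers was 1626 CPM in replicate 1 and 2756 CPM in replicate 2, that of 7 fibroblast markers was 21243 CPM and 7355 CPM, and that of 13 mitochondrial and nuclear-retained transcripts was 21033 CPM and 32240 CPM. In 3D uninduced, 2D induced and 2D uninduced libraries the adipocyte sums were 122 and 122, 6558 and 6079, and 86.2 and 85.5 CPM. Of 5 macrophage markers, Ptprc and Adgre1 had 0 counts in all 8 libraries, but the others were detected. The sums of the 5 were 13.6 and 24.8 CPM in 3D induced and 22.0 and 14.6 CPM in 3D uninduced libraries. They were 11.8 and 13.1 CPM in 2D induced and 17.2 and 12.3 CPM in 2D uninduced libraries. Because the induced spheroid libraries stood apart, their values are shown singly, and counts of calls that rest on them are given with and without each one.

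The promoters of the members are shown first, because the replication and mitosis genes are known to be switched on by different DNA elements and their levels also moved differently below. Windows from 250 bases before to 50 bases after the gene start were available from RefSeq (build GRCm38.p6) for 30 of the 40 members. No window was matched for Mcm4, Gins2, Ccna2, Foxm1, Aurkb, Tpx2, Kif20a, Ccnd1, Ccnd2 and Ccne2. Exact matches were counted on both strands for 3 kinds of element: an E2F element (TTTGGCGC, TTTCCCGC, TTTCGCGC or TTTGCCGC), a cell cycle homology region or CHR (TTTGAA or TTCGAA), and a CCAAT box (CCAAT). The windows below run 5′ to 3′ along the gene's strand, with the matches in capitals (a match on the other strand appears as its reverse complement, ATTGG for the CCAAT box). Mcm5 lay at chr8:75109259-75109558 (plus strand), Pcna at chr2:132253131-132253430 (minus), Rrm2 at chr12:24708004-24708303 (plus), Cdk1 at chr10:69352863-69353162 (minus), Ccnb2 at chr9:70421505-70421804 (minus) and Plk1 at chr7:122159185-122159484 (plus). Mcm5, Pcna and Rrm2 stand for the replication genes, and Cdk1, Ccnb2 and Plk1 for the mitosis genes.
Mcm5: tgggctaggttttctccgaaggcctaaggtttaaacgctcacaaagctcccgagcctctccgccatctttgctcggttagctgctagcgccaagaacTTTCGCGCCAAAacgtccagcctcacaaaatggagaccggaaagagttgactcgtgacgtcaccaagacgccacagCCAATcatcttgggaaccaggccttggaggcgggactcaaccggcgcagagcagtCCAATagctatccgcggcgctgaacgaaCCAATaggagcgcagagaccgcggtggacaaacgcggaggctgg
Pcna: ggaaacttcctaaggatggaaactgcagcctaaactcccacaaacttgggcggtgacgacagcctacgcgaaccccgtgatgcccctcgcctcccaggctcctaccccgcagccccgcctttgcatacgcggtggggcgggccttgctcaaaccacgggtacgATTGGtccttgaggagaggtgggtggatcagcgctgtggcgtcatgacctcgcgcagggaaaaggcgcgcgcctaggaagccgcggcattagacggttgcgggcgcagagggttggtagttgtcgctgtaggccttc
Rrm2: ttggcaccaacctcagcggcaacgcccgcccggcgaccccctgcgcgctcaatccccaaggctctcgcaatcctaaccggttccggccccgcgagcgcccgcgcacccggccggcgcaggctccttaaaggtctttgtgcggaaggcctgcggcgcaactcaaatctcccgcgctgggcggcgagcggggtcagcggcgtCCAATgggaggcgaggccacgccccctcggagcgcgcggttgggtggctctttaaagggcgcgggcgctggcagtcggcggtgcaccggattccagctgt
Cdk1: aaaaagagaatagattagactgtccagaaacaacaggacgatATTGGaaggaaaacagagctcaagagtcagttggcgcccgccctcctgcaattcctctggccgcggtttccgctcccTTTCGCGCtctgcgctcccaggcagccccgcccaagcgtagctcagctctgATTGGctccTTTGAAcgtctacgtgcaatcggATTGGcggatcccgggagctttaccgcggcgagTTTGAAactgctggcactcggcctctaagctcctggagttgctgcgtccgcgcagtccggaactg
Ccnb2: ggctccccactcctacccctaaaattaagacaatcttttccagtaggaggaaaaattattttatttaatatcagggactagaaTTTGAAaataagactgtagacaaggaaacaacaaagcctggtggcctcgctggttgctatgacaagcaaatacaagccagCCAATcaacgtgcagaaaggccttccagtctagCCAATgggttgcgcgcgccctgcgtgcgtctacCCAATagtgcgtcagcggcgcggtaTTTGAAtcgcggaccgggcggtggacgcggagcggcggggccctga
Plk1: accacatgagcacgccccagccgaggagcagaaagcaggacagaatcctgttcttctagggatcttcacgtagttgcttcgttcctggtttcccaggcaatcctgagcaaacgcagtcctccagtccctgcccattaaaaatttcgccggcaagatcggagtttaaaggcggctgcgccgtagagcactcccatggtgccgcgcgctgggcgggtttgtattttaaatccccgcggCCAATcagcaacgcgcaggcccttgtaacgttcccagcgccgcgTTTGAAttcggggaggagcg
In the Mcm5 window, an E2F match on each strand overlapped in a single run, and 3 CCAAT boxes followed it. The Pcna and Rrm2 windows each held 1 CCAAT box and neither of the other elements. Cdk1 was the only mitosis gene whose window held an E2F match, and it also held 2 CHR matches and 3 CCAAT boxes. The Ccnb2 window held 2 CHR matches and 3 CCAAT boxes, and that of Plk1 held 1 of each. An E2F match was found in 7 of 13 replication windows (53.8%; Mcm3, Mcm5, Mcm6, Mcm7, Cdc6, Cdt1 and Pola1), against 1 of 15 mitosis windows (6.67%) and 704 of all 27025 windows (2.60%). A CHR match was found in 2 of 13 replication windows (15.4%), against 12 of 15 mitosis windows (80.0%) and 5854 of all windows (21.7%). CCAAT boxes were in 9 replication windows (69.2%), 14 mitosis windows (93.3%) and 11096 of all windows (41.1%). A separate list of 44 further mitosis genes with a window held a CHR match in 31 (70.5%), and 32 further replication genes held one in 8. An E2F match was found in 10 of these 32 replication windows (31.2%), a lower share than among the members, and in 4 of the 44 mitosis windows (9.09%). These matches describe letters and not bound sites.

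Induction in flat culture was tested first. Levels of 3 of the 40 members rose in 2D induced over 2D uninduced cultures, all at the entry into or start of S phase: Rrm2, the small subunit of the enzyme that makes deoxynucleotides, and Ccne1 and Ccne2, which encode the cyclins E that start S phase. No member fell. A gene was called when its adjusted p was under 0.05 and its change at least 2-fold in edgeR's quasi-likelihood test with Benjamini-Hochberg adjustment over all tested genes. Of all tested genes, 3.17% were called higher and 1.34% lower in this comparison. With 0 members called lower, 0 also reached an unadjusted p under 0.05 in that direction, against 10.5% of all tested genes, and DESeq2 and limma-voom called 0.

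Rrm2 (ENSMUSG00000020649, chromosome 12 from 24708241 to 24714146, mm10) had 68.97 and 71.8 CPM in 2D induced, against 25.98 and 22.01 CPM in 2D uninduced libraries. Its fitted change was 2.93-fold (log2 fold change 1.55 ± 0.32, adjusted p = 0.0241). Ccne1 (ENSMUSG00000002068, chromosome 7 from 38097984 to 38107534) had 33.9 and 36.5 CPM in 2D induced, against 15.7 and 11.9 CPM in 2D uninduced libraries, a log2 fold change of 1.35 ± 0.24 (adjusted p = 0.0137). Both induced libraries stood above both uninduced ones for each of these genes, with a gap wider than the distance between replicates. Ccne2 (ENSMUSG00000028212, chromosome 4 from 11191351 to 11204779) had 20.9 and 18.1 CPM in 2D induced, against 8.31 and 7.76 CPM in 2D uninduced libraries and changed by 1.27 ± 0.16 (adjusted p = 0.00361). Of its exon bases, 17.4% overlap the opposite-strand gene Ints8, which changed by -0.09 on the log2 scale (adjusted p = 0.67). The library kit kept strand, but the strand setting of the counting is not given in the sources used here. Opposite-strand genes also overlap exon bases of Kif20a (29.3%, Cdc23), Ccnd1 (23.4%, LTO1), Ube2c (22.8%, Tnnc2), Ccna2 (12.5%, Exosc9) and Mcm7 (7.25%, Ap4m1). The levels of these genes carry the same uncertainty.

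A further 2 members passed the adjusted p at less than 2-fold, which brought those higher at any fold to 5 of 40, against 5.91% of all tested genes. At any fold 0 members were lower, against 2.97% of all tested genes. Cdt1, the licensing factor that brings the helicase to origins, had 22.2 and 23.4 CPM in 2D induced, against 14.98 and 10.9 CPM in 2D uninduced libraries (log2 fold change 0.81 ± 0.19, adjusted p = 0.0427). Aurka, the Aurora A kinase of the spindle poles, had 22.7 and 24.5 CPM in 2D induced, against 14.98 and 11.98 CPM in 2D uninduced libraries (log2 fold change 0.80 ± 0.20, adjusted p = 0.0455). For both genes every induced library was above every uninduced one.

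Most other members leaned the same way in flat culture by amounts that did not pass the test. The induced libraries lay above the uninduced ones without overlap for 27 of the 40 members and below them for 4, against 35.1% and 34.5% of all tested genes. The median log2 fold change was 0.19 over the 15 replication genes (13 positive) and 0.27 over the 20 mitosis genes (15 positive), against 0.00 over all tested genes. Mcm5, a subunit of the replicative helicase, had 40.02 and 43.4 CPM in 2D induced, against 32.01 and 26.7 CPM in 2D uninduced libraries (log2 fold change 0.51 ± 0.28, adjusted p = 0.327). Mcm7, another helicase subunit, had 71.1 and 69.6 CPM in 2D induced, against 65.01 and 53.6 CPM in 2D uninduced libraries (0.24 ± 0.12, adjusted p = 0.272). Tyms, the thymidylate synthase, had 24.8 and 28.1 CPM in 2D induced, against 26.2 and 24.9 CPM in 2D uninduced libraries, and its groups overlapped. Among the mitosis genes, Ccnb1, the cyclin B of mitotic entry, had 41.5 and 45.99 CPM in 2D induced, against 29.7 and 22.7 CPM in 2D uninduced libraries (0.74 ± 0.50, adjusted p = 0.432). Cdc20, an activator of the ubiquitin ligase that ends mitosis, had 44.5 and 41.9 CPM in 2D induced, against 31.96 and 25.5 CPM in 2D uninduced libraries (0.59 ± 0.32, adjusted p = 0.322). The induced libraries were again the higher ones for Ccnb1 and Cdc20, but the fitted error, which all 8 libraries share, was large beside the difference.

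The cyclins D, which carry growth signals to the retinoblastoma protein, did not move with the cyclins E. Ccnd1 had 115 and 111 CPM in 2D induced, against 236 and 211 CPM in 2D uninduced libraries and Ccnd2 had 712 and 694 CPM in 2D induced, against 716 and 670.1 CPM in 2D uninduced libraries. For Ccnd1 both induced libraries were lower, with a log2 fold change of -0.98 ± 0.56 that did not pass the test (adjusted p = 0.346). For Ccnd2 the groups overlapped (0.02 ± 0.16, adjusted p = 0.959). E2f1, the activating E2F factor of S phase entry, had 52.8 and 49.6 CPM in 2D induced, against 46.8 and 49.4 CPM in 2D uninduced libraries. Both induced libraries were higher, by a gap smaller than the distance between replicates (0.09 ± 0.11, adjusted p = 0.684).

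The calls needed both libraries of each flat group: when a flat library was left out they were lost, apart from that of Ccne2 without 2D induced replicate 2. Such a fit leaves a group with a lone library. Calls fell among all tested genes there too, so the loss was not particular to these members. Rrm2 also lost its call without 3D uninduced replicate 1 (adjusted p = 0.0547) or replicate 2 (adjusted p = 0.0553), so that it was called in 12 of 18 alternative fits. In the fits that left out a library Rrm2, Ccne1 and Ccne2 stayed at log2 fold changes of at least 1.40, 1.13 and 1.13, with adjusted p up to 0.21, 0.157 and 0.0717, and in a fit to the 4 flat libraries alone all 3 were called, at 1.53, 1.33 and 1.26.

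**Figure D1:**
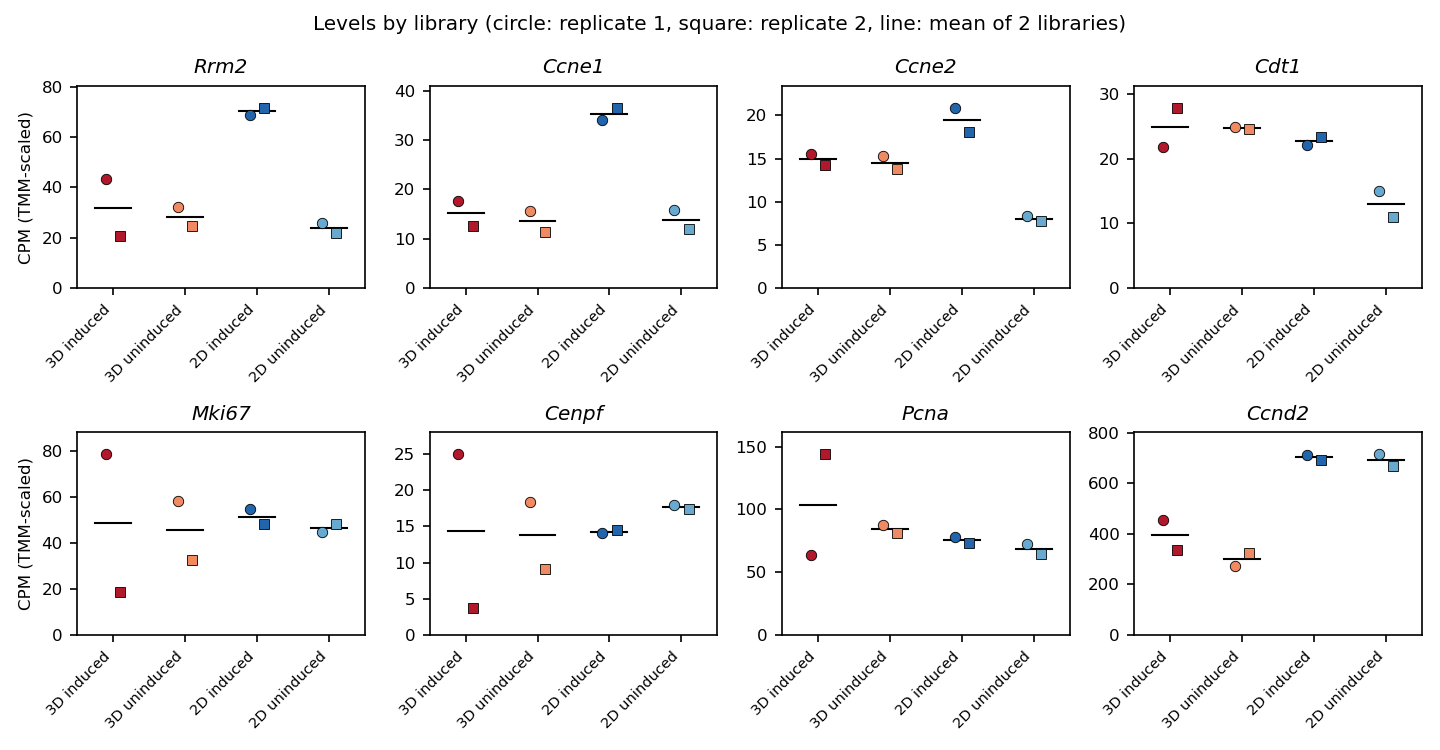
Levels of 8 members in CPM (vertical axes, each starting at 0) by group, with replicate 1 as a circle, replicate 2 as a square and the group mean as a line. Rrm2, Ccne1 and Ccne2 are highest in the 2D induced libraries (69.0 and 71.8 CPM for Rrm2), while Mki67 and Cenpf are spread most widely in 3D induced spheroids (78.6 and 18.5 CPM for Mki67).

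Genes of the same processes outside the 40 members were counted as well. Of 40 other replication genes, 1 was called higher in 2D induced cultures: Cdc45, a helicase cofactor (log2 fold change 1.08 ± 0.26, adjusted p = 0.0412). At an unadjusted p under 0.05 in edgeR's test, 15 of the 40 were higher and 0 lower, against 13% and 10.5% of all tested genes. Their median log2 fold change was 0.37, with 35 of the 40 positive. Of 10 other genes of G1 and the E2F family, 2 were called higher, E2f2 (2.41 ± 0.44, adjusted p = 0.0152) and the growth regulator Myc (1.55 ± 0.29, adjusted p = 0.0163). Of 50 other mitosis genes, 0 were called by edgeR or limma-voom and 1 by DESeq2. At an unadjusted p under 0.05 in edgeR's test, 5 of the 50 were higher, against 13% of all tested genes. Myc had 42.8 and 71.9 CPM in 3D induced, 39.4 and 38.5 CPM in 3D uninduced, 39.0 and 37.6 CPM in 2D induced and 16.03 and 9.95 CPM in 2D uninduced libraries, so that the 2D uninduced pair stood lowest. E2f2 had 1.90 and 1.46 CPM in 3D induced, 1.77 and 1.24 CPM in 3D uninduced, 4.38 and 3.15 CPM in 2D induced and 0.90 and 0.45 CPM in 2D uninduced libraries, and was highest in the 2D induced pair.

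Induction in spheroids was tested next. No member was called in 3D induced against 3D uninduced spheroids in either direction, where 0.583% of all tested genes were called higher and 0.328% lower. At an unadjusted p under 0.05, 1 member was higher (Ccnd2) and 0 were lower in edgeR's test, against 6.96% and 5.47% of all tested genes, and DESeq2 and limma-voom called 0 in each direction. No member passed the adjusted p at any fold, where 0.859% of all tested genes passed it upward and 0.505% downward. The mitosis genes instead separated the libraries of the 3D induced group from each other. Replicate 1 held the highest mitosis levels of the series for 9 of 20 genes (17.1% of all tested genes were highest there), and replicate 2 the lowest for 19 of 20 (20.2% of all tested genes).

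Mki67, whose product Ki-67 coats mitotic chromosomes and marks cycling cells, had 78.6 and 18.5 CPM in 3D induced, against 58.3 and 32.4 CPM in 3D uninduced libraries. Top2a, the topoisomerase that untangles replicated chromosomes, had 144 and 30.5 CPM in 3D induced, against 131 and 56.9 CPM in 3D uninduced libraries. Cenpf, a kinetochore protein of G2 and mitosis, had 25.04 and 3.63 CPM in 3D induced, against 18.4 and 9.16 CPM in 3D uninduced libraries. In each case the induced libraries lay on either side of both uninduced ones, so the group means hardly differed: the log2 fold changes were 0.09 ± 0.56 for Mki67 (adjusted p = 0.974), -0.11 ± 0.63 for Top2a (adjusted p = 0.973) and 0.05 ± 0.71 for Cenpf (adjusted p = 0.988). In bulk RNA, fewer cycling cells and less of these mRNAs per cycling cell cannot be told apart.

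The same layout held for most mitosis genes. Replicate 1 was above and replicate 2 below both 3D uninduced libraries for 18 of 20 mitosis genes and 6 of 15 replication genes, against 17.2% of all tested genes. The opposite layout was seen for 2 members, Cdt1 and Pcna, against 15.7% of all tested genes. The 2 mitosis genes outside the layout were Aurka, described below, and Cdk1, the kinase of mitotic entry, with 35.5 and 16.4 CPM in 3D induced, against 42.2 and 26.3 CPM in 3D uninduced libraries (log2 fold change -0.40 ± 0.36, adjusted p = 0.747). Its partner Ccnb1 had 38.3 and 11.2 CPM in 3D induced, against 26.9 and 15.2 CPM in 3D uninduced libraries (0.23 ± 0.51, adjusted p = 0.922). Plk1, a kinase of spindle assembly, had 23.2 and 5.09 CPM in 3D induced, against 14.7 and 9.23 CPM in 3D uninduced libraries. Birc5, which encodes survivin of the chromosomal passenger complex, had 21.6 and 4.39 CPM in 3D induced, against 13.9 and 9.52 CPM in 3D uninduced libraries. For Ccnb1, Plk1 and Birc5, replicate 2 of the induced spheroids was the lowest of the 4 spheroid libraries and replicate 1 the highest.

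Set against each other, the 3D induced libraries differed by a median log2 ratio (replicate 2 over replicate 1) of -1.54 over the mitosis genes, and 17 of the 20 were lower by at least 2-fold. Over all tested genes this median was -0.01, and 9.69% were lower by at least 2-fold. The mitosis range ran from -2.74 for Cenpf to -0.38 for Aurka. Replication genes differed less, with a median of -0.36 and 3 of 15 at least 2-fold lower. Pcna, the sliding clamp of the DNA polymerases, ran the other way at 1.18. The 50 other mitosis genes had a median of -1.13, with 48 lower in replicate 2, and the 40 other replication genes a median of -0.50, with 31 lower.

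A further 8 mitosis genes shared the layout of Mki67. Ccna2, the cyclin A of S and G2 phase, had 48.7 and 16.7 CPM in 3D induced, against 40.8 and 28.1 CPM in 3D uninduced libraries. Aurkb, the Aurora B kinase that corrects chromosome attachment, had 16.5 and 4.51 CPM in 3D induced, against 11.3 and 7.93 CPM in 3D uninduced libraries. Bub1, a kinase of the spindle checkpoint, had 19.3 and 6.50 CPM in 3D induced, against 18.2 and 9.67 CPM in 3D uninduced libraries. For all 3, replicate 1 was the highest and replicate 2 the lowest of the spheroid libraries, with a log2 ratio of replicate 2 over replicate 1 between -1.84 for Aurkb and -1.53 for Ccna2. The kinesin Kif11, which pushes spindle poles apart, had 31.8 and 7.61 CPM in 3D induced, against 20.9 and 12.7 CPM in 3D uninduced libraries. Cenpe, a kinetochore motor, had 35.8 and 8.08 CPM in 3D induced, against 26.1 and 11.3 CPM in 3D uninduced libraries. Ube2c, the ubiquitin-conjugating enzyme of mitotic exit, had 28.7 and 10.5 CPM in 3D induced, against 22.05 and 12.6 CPM in 3D uninduced libraries. The gap was wide for Kif11 (-2.04) and Cenpe (-2.13) and smaller for Ube2c (-1.44). It was smaller still for Foxm1, the transcription factor of the mitotic wave, at 45.1 and 20.4 CPM in 3D induced, against 36.1 and 35.2 CPM in 3D uninduced libraries (-1.14), and for the kinesin Kif20a, at 57.6 and 32.7 CPM in 3D induced, against 44.2 and 37.7 CPM in 3D uninduced libraries (-0.82). None of these 8 genes passed the adjusted p in any of the 5 comparisons. Ccnb2, a B-type cyclin, had 12.9 and 4.51 CPM in 3D induced, against 9.95 and 4.94 CPM in 3D uninduced libraries. Bub1b, a kinase-like protein of the spindle checkpoint, had 38.2 and 13.8 CPM in 3D induced, against 27.3 and 17.6 CPM in 3D uninduced libraries. Both shared the layout too.

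A smaller gap of the same kind was seen between the 3D uninduced libraries. All 20 mitosis genes were lower in replicate 2 than in replicate 1, with a median of -0.67, and 14 of 15 replication genes were lower, with a median of -0.25. The flat libraries were much closer: the mitosis medians were -0.02 between the 2D induced and -0.26 between the 2D uninduced replicates, and no mitosis gene differed by 2-fold in either group. Replicate numbers do not link libraries across groups in the labels.

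**Figure D2:**
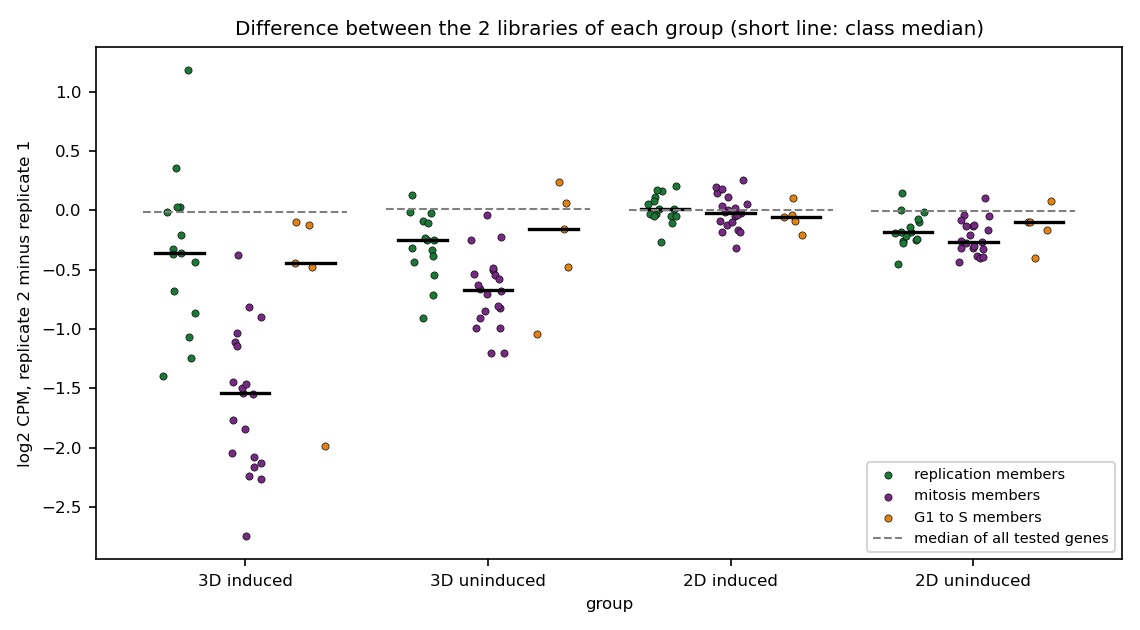
Replicate 2 minus replicate 1 (log2 CPM, vertical axis) for each member by class in the 4 groups, with the median of all tested genes dashed. Mitosis genes reach from -2.74 to -0.38 in 3D induced spheroids, all 20 are below 0 in 3D uninduced spheroids (median -0.67), and they stay near 0 in 2D induced cultures (median -0.02).

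Replication genes varied in a less uniform way within spheroids. Mcm5 had 52.2 and 28.6 CPM in 3D induced, against 50.2 and 37.2 CPM in 3D uninduced libraries and Cdc6, which loads the helicase with Cdt1, had 9.88 and 4.10 CPM in 3D induced, against 11.1 and 5.89 CPM in 3D uninduced libraries. Pola1, the catalytic subunit of the primer-making polymerase, had 30.5 and 11.5 CPM in 3D induced, against 31.9 and 19.3 CPM in 3D uninduced libraries. For these genes the lowest value was in 3D induced replicate 2 and the next lowest in 3D uninduced replicate 2. Mcm3, a further helicase subunit, had 60.1 and 44.5 CPM in 3D induced, against 67.7 and 46.4 CPM in 3D uninduced libraries, and Tyms had 26.4 and 20.5 CPM in 3D induced, against 22.1 and 24.2 CPM in 3D uninduced libraries. Replicate 2 was the lower of the libraries in both groups for Mcm3 and in the induced group only for Tyms. The helicase subunit Mcm2 had 101 and 103 CPM in 3D induced, against 112 and 94.4 CPM in 3D uninduced libraries. Its partner Mcm6 had 86.1 and 68.6 CPM in 3D induced, against 84.9 and 71.5 CPM in 3D uninduced libraries, and neither passed the adjusted p in any of the 5 comparisons. Mcm4 and Mcm7 did not share the drop of Mcm5 either: Mcm4 had 61.5 and 60.8 CPM in 3D induced, against 80.7 and 68.6 CPM in 3D uninduced libraries, and Mcm7 had 82.03 and 83.7 CPM in 3D induced, against 91.6 and 86.2 CPM in 3D uninduced libraries. Both induced libraries were below both uninduced ones for Mcm4 and Mcm7, by log2 fold changes of -0.29 ± 0.13 (adjusted p = 0.427) and -0.10 ± 0.12 (adjusted p = 0.818).

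Cdt1 had 21.7 and 27.9 CPM in 3D induced, against 24.8 and 24.5 CPM in 3D uninduced libraries and Pcna had 63.4 and 144 CPM in 3D induced, against 87.6 and 81.3 CPM in 3D uninduced libraries. For both, the induced libraries enclosed the uninduced ones with replicate 2 on top (0.01 ± 0.19, adjusted p = 0.992, for Cdt1 and 0.30 ± 0.32, adjusted p = 0.795, for Pcna). Pcna has processed copies in the genome, and the copy Pcna-ps2 had 22.0 and 52.1 CPM in 3D induced against 31.3 and 30.4 CPM in 3D uninduced libraries. Reads shared between Pcna and such copies could have been split, so its level is uncertain.

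The genes that rose in flat culture were not called in spheroids. Rrm2 had 43.2 and 20.6 CPM in 3D induced, against 32.1 and 24.5 CPM in 3D uninduced libraries (log2 fold change 0.17 ± 0.31, adjusted p = 0.897). Ccne1 had 17.6 and 12.6 CPM in 3D induced, against 15.7 and 11.3 CPM in 3D uninduced libraries (0.16 ± 0.24, adjusted p = 0.868), and Ccne2 had 15.6 and 14.3 CPM in 3D induced, against 15.3 and 13.7 CPM in 3D uninduced libraries (0.04 ± 0.16, adjusted p = 0.964). The induced and uninduced values overlapped for all 3 genes. Aurka had 15.1 and 11.6 CPM in 3D induced, against 13.1 and 11.1 CPM in 3D uninduced libraries and Cdc20 had 33.5 and 16.3 CPM in 3D induced, against 25.4 and 18.2 CPM in 3D uninduced libraries, again overlapping (0.14 ± 0.20, adjusted p = 0.866, and 0.19 ± 0.32, adjusted p = 0.89).

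Among the G1 regulators, Ccnd2 had 454 and 334 CPM in 3D induced, against 274 and 323 CPM in 3D uninduced libraries, and both induced libraries were above both uninduced ones (0.40 ± 0.16, adjusted p = 0.369). Ccnd1 had 161 and 40.7 CPM in 3D induced, against 199 and 96.6 CPM in 3D uninduced libraries, with its lowest value in 3D induced replicate 2 (-0.55 ± 0.56, adjusted p = 0.784). E2f1 had 40.7 and 38.1 CPM in 3D induced, against 41.5 and 43.3 CPM in 3D uninduced libraries, a narrow range with the induced libraries lower (-0.10 ± 0.11, adjusted p = 0.792). In all, the induced spheroids lay above the uninduced ones without overlap for 1 member and below for 3 (Mcm4, Mcm7 and E2f1), against 18.0% and 14.6% of all tested genes.

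The direction of the mitosis genes on induction in spheroids was set by which induced library was used. Without replicate 1, 8 members were called lower in 3D induced spheroids, against 4.87% of all tested genes in that fit: Cdc6, Pola1, Ccna2, Plk1, Aurkb, Birc5, Cenpf and Kif11. The log2 fold changes then were -1.92 for Cenpf and -1.41 for Birc5, and all 20 mitosis genes were negative with a median of -1.05. Without replicate 2, no member was called in either direction, against 1.26% of all tested genes lower and 1.85% higher, and all 20 mitosis genes were positive with a median of 0.75. Each such fit takes the lone induced library to vary like the libraries of the other groups. The library with lower mitosis levels was also the one with higher adipocyte sums, lower fibroblast sums and higher mitochondrial and nuclear-retained sums given above. Not every marker moved with its sum. In replicate 2, 3 of 8 adipocyte markers and 4 of 13 mitochondrial and nuclear-retained transcripts were lower (median log2 ratios over replicate 1 of 0.53 and 0.18). Of the latter, 2 were at least 2-fold higher. All 7 fibroblast markers were lower (median -0.64). The part of these differences in the result was not tested.

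**Figure D3:**
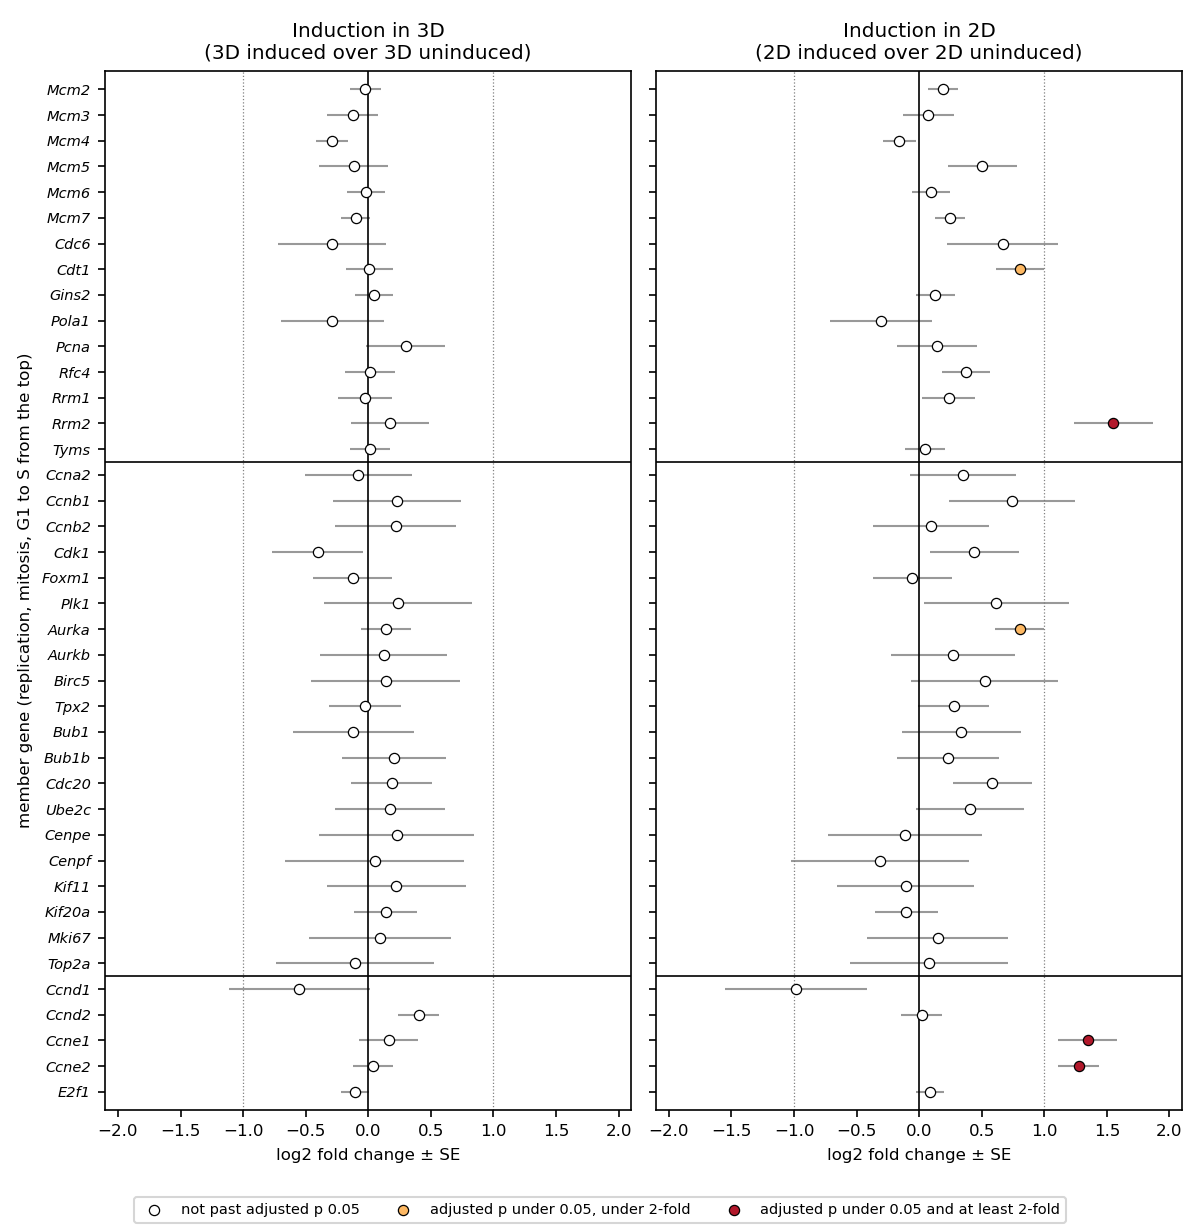
Log2 fold change with its standard error (horizontal axis) for every member on induction in spheroids (left) and in flat culture (right); white points did not pass the adjusted p, orange points passed it at less than 2-fold and red points were called. On the right Rrm2 (1.55), Ccne1 (1.35) and Ccne2 (1.27) are red, and on the left no point passed the test and the mitosis genes carry the widest errors (0.71 for Cenpf).

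The effect of the spheroid form without induction was compared next. The median changes of replication and mitosis genes had opposite signs in 3D uninduced against 2D uninduced cultures. The median log2 fold change was 0.31 over the replication genes (11 of 15 positive) and -0.30 over the mitosis genes (18 of 20 negative), against 0.03 over all tested genes. The mitosis lean rested on replicate 2 of the spheroids. Relative to each gene's mean over the 8 libraries, the mitosis median was 0.06 and -0.55 in 3D uninduced replicates 1 and 2. It was 0.25 and -0.01 in the 2D uninduced libraries. Of the 20 mitosis genes, 0 reached an unadjusted p under 0.05 in either direction. A single member was called, the cyclin Ccnd2, which fell, where 5.42% of all tested genes were called higher and 4.02% lower. With 0 called higher by edgeR, DESeq2 and limma-voom, 6 of 40 members were higher at an unadjusted p under 0.05, against 19.1% of all tested genes, and 3 were lower, against 17.3%.

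Ccnd2 (ENSMUSG00000000184, chromosome 6 from 127125162 to 127152193) had 274 and 323 CPM in 3D uninduced, against 716 and 670 CPM in 2D uninduced cultures (log2 fold change -1.22 ± 0.17, adjusted p = 0.00315). The gap between groups was several times that between replicates, and the call held in all 18 alternative fits. An opposite-strand gene, Gm43126, overlaps 3.95% of its exon bases and changed by -1.23 (adjusted p = 0.00652). Ccnd1, the other cyclin D among the members, had 199 and 96.6 CPM in 3D uninduced, against 236 and 211 CPM in 2D uninduced libraries (-0.60 ± 0.56, adjusted p = 0.487), with both spheroid libraries lower but far apart.

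A further 4 members passed the adjusted p in the upward direction at less than 2-fold, where 10.9% of all tested genes passed it upward at any fold. Cdt1 had 24.8 and 24.5 CPM in 3D uninduced, against 14.98 and 10.9 CPM in 2D uninduced libraries (log2 fold change 0.92 ± 0.19, adjusted p = 0.0152). Ccne2 had 15.3 and 13.7 CPM in 3D uninduced, against 8.31 and 7.76 CPM in 2D uninduced libraries (0.85 ± 0.16, adjusted p = 0.0112), and Mcm7 had 91.6 and 86.2 CPM in 3D uninduced, against 65.01 and 53.6 CPM in 2D uninduced libraries (0.58 ± 0.12, adjusted p = 0.0141). For these 3 genes each spheroid library was above each flat one. Gins2, a subunit of the GINS complex that travels with the helicase, had 41.4 and 41.2 CPM in 3D uninduced, against 26.5 and 26.7 CPM in 2D uninduced libraries (0.63 ± 0.16, adjusted p = 0.0272). Of its exon bases, 67.3% overlap the opposite-strand gene Gse1, which itself rose by 1.08 ± 0.12 (adjusted p = 0.00167), so the level of Gins2 is uncertain. Mcm3 had 67.7 and 46.4 CPM in 3D uninduced, against 40.1 and 37.5 CPM in 2D uninduced libraries, and Mcm4 and Mcm3 leaned the same way without passing (log2 fold change 0.44 ± 0.13, adjusted p = 0.0508, and 0.56 ± 0.21, adjusted p = 0.0938).

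Not every replication gene was higher in uninduced spheroids. Rrm2 had 32.1 and 24.5 CPM in 3D uninduced, against 25.98 and 22.01 CPM in 2D uninduced libraries, with overlapping groups (0.23 ± 0.31, adjusted p = 0.633). Rrm1, the large subunit of the same enzyme, had 80.4 and 64.6 CPM in 3D uninduced, against 104 and 103 CPM in 2D uninduced libraries, and Rfc4, a subunit of the clamp loader, had 7.82 and 6.18 CPM in 3D uninduced, against 10.2 and 9.27 CPM in 2D uninduced libraries. Both spheroid libraries were below both flat ones for Rrm1 (-0.51 ± 0.21, adjusted p = 0.129) and Rfc4 (-0.48 ± 0.19, adjusted p = 0.119), short of the threshold.

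Among mitosis genes, Tpx2, a spindle assembly factor that activates Aurora A, had 55.4 and 37.2 CPM in 3D uninduced, against 73.3 and 67.2 CPM in 2D uninduced libraries (-0.60 ± 0.29, adjusted p = 0.174). Ccnb2 had 9.95 and 4.94 CPM in 3D uninduced, against 14.8 and 13.2 CPM in 2D uninduced libraries (-0.91 ± 0.48, adjusted p = 0.212). Bub1b had 27.3 and 17.6 CPM in 3D uninduced, against 37.03 and 33.8 CPM in 2D uninduced libraries (-0.66 ± 0.42, adjusted p = 0.298). The spheroid libraries were lower for each of these 3 genes, and replicate 2 was the lower of them. Mki67 had 58.3 and 32.4 CPM in 3D uninduced, against 44.6 and 48.1 CPM in 2D uninduced libraries and overlapped between groups (-0.03 ± 0.56, adjusted p = 0.975). Over the 40 members, the spheroids lay above the flat cultures without overlap for 10 members, 8 of them replication genes, and below for 15, 8 of them mitosis genes, against 38.1% and 35.2% of all tested genes. E2f1 had 41.5 and 43.3 CPM in 3D uninduced, against 46.8 and 49.4 CPM in 2D uninduced libraries (-0.18 ± 0.11, adjusted p = 0.274) and Ccne1 had 15.7 and 11.3 CPM in 3D uninduced, against 15.7 and 11.9 CPM in 2D uninduced libraries (-0.04 ± 0.24, adjusted p = 0.923).

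Of the other lists, 3 of 40 replication genes were called higher in 3D uninduced over 2D uninduced cultures, namely the replication kinase Cdc7 (1.598 ± 0.18, adjusted p = 0.00167), the origin recognition subunit Orc1 (1.14 ± 0.24, adjusted p = 0.0158) and the nuclease and helicase Dna2 (1.43 ± 0.33, adjusted p = 0.0216). Myc was also called higher (1.57 ± 0.29, adjusted p = 0.00893). The 50 other mitosis genes had 0 calls by edgeR, DESeq2 and limma-voom, 0 at an unadjusted p under 0.05, and a median log2 fold change of -0.08. The 13 mitochondrial and nuclear-retained transcripts moved with the spheroid form: their sums were 20112 and 17750 CPM in 3D uninduced, against 4531 and 4731 CPM in 2D uninduced libraries, and 11 of the 13 were called higher. Fibroblast sums were 16288 and 18924 CPM in 3D uninduced, against 45602 and 47103 CPM in 2D uninduced libraries. Their part in the members' changes was not tested.

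Spheroids and flat cultures were then compared with induction. In 3D induced against 2D induced cultures, 2 members were called lower, Ccne1 and Rrm2, and 0 higher, where 5.46% of all tested genes were called lower and 6.94% higher. At an unadjusted p under 0.05, 2 members were higher and 11 lower, against 22.3% and 20.3% of all tested genes, and DESeq2 and limma-voom called 0 higher. Ccne1 had 17.6 and 12.6 CPM in 3D induced, against 33.9 and 36.5 CPM in 2D induced libraries (log2 fold change -1.22 ± 0.24, adjusted p = 0.00852). Rrm2 had 43.2 and 20.6 CPM in 3D induced, against 68.97 and 71.8 CPM in 2D induced libraries (-1.14 ± 0.31, adjusted p = 0.0298). Both spheroid libraries were below both flat ones in each case. Marker sums moved with this comparison: those of the 13 mitochondrial and nuclear-retained transcripts were 21033 and 32240 CPM in 3D induced, against 4298 and 4937 CPM in 2D induced libraries (12 of 13 called higher). Fibroblast sums were 21243 and 7355 CPM in 3D induced, against 30848 and 30180 CPM in 2D induced libraries, and 7 of the 8 adipocyte markers were called lower. Their part in the members' changes was not tested.

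A further 6 members passed the adjusted p downward at less than 2-fold, which made 8 of 40 at any fold, against 14.0% of all tested genes. Ccnd2 had 454 and 334 CPM in 3D induced, against 712 and 694 CPM in 2D induced libraries (-0.83 ± 0.16, adjusted p = 0.00922). Aurka had 15.1 and 11.6 CPM in 3D induced, against 22.7 and 24.5 CPM in 2D induced libraries (-0.82 ± 0.20, adjusted p = 0.019), and Rfc4 had 7.58 and 6.55 CPM in 3D induced, against 12.9 and 12.5 CPM in 2D induced libraries (-0.84 ± 0.19, adjusted p = 0.0165). These 3 genes were lower in each spheroid library than in each flat one. Of the exon bases of Rfc4, 12.7% overlap the opposite-strand gene Eif4a2, which held 38329 counts over the libraries against 1065 for Rfc4. Eif4a2 changed by 0.20 ± 0.10 (adjusted p = 0.163), and the level of Rfc4 is uncertain. Rrm1 had 87.7 and 54.8 CPM in 3D induced, against 115 and 128 CPM in 2D induced libraries (-0.77 ± 0.21, adjusted p = 0.0318). Tpx2 had 59.1 and 31.7 CPM in 3D induced, against 85.9 and 84.4 CPM in 2D induced libraries (-0.91 ± 0.29, adjusted p = 0.0494), and E2f1 had 40.7 and 38.1 CPM in 3D induced, against 52.8 and 49.6 CPM in 2D induced libraries (-0.38 ± 0.11, adjusted p = 0.0381). The groups did not overlap for these genes either, though replicate 2 lay well below replicate 1 in spheroids for Rrm1 and Tpx2. Gins2 was the 1 member that passed upward, against 14.7% of all tested genes, with 47.99 and 37.3 CPM in 3D induced, against 31.8 and 26.5 CPM in 2D induced libraries (0.55 ± 0.16, adjusted p = 0.0348), with the overlap with Gse1 described above. In a fit to the 4 induced libraries alone none of the 6 lower genes passed (adjusted p from 0.0683 for Ccnd2 to 0.177 for E2f1). Over 18 alternative fits E2f1 passed in 6 and Tpx2 in 7.

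The mitosis genes had a median of -0.63 (18 of 20 negative), the replication genes of -0.05 (8 of 15 negative) and the G1 genes of -0.38 (5 of 5 negative), against 0.03 over all tested genes. Cdc20 had 33.5 and 16.3 CPM in 3D induced, against 44.5 and 41.9 CPM in 2D induced libraries (-0.80 ± 0.32, adjusted p = 0.098), with both spheroid libraries lower. Cenpf had 25.04 and 3.63 CPM in 3D induced, against 14.1 and 14.5 CPM in 2D induced libraries, so the spheroid libraries lay on either side of the flat ones (-0.01 ± 0.71, adjusted p = 0.996). Mki67 showed the same layout, with 78.6 and 18.5 CPM in 3D induced, against 54.5 and 48.2 CPM in 2D induced libraries (-0.08 ± 0.56, adjusted p = 0.925). Mcm5 had 52.2 and 28.6 CPM in 3D induced, against 40.02 and 43.4 CPM in 2D induced libraries and Ccnd1 had 161 and 40.7 CPM in 3D induced, against 115 and 111 CPM in 2D induced libraries, each with the flat pair inside the spheroid range (-0.05 ± 0.28, adjusted p = 0.913, and -0.16 ± 0.56, adjusted p = 0.852). Without overlap, 17 members were lower in spheroids and 4 higher, against 31.2% and 31.9% of all tested genes.

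This comparison too depended on the induced spheroid libraries. Without 3D induced replicate 1, 21 members were called lower, 16 of them mitosis genes, against 9.66% of all tested genes in that fit, and the mitosis median was -1.57. Without 3D induced replicate 2, only Ccne1 was called (log2 fold change -1.003), against 6.13% of all tested genes, and the mitosis median was -0.04. Rrm2 then changed by -0.70 (adjusted p = 0.00133, within a range of 6.97e-07 to 0.132 over the alternatives), less than 2-fold. The call of Rrm2 was also lost when any 2D library or 3D uninduced library was left out, and that of Ccne1 when either 2D induced library was. Such fits leave a group with a lone library, and fewer of all tested genes were called lower in them too.

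**Figure D4:**
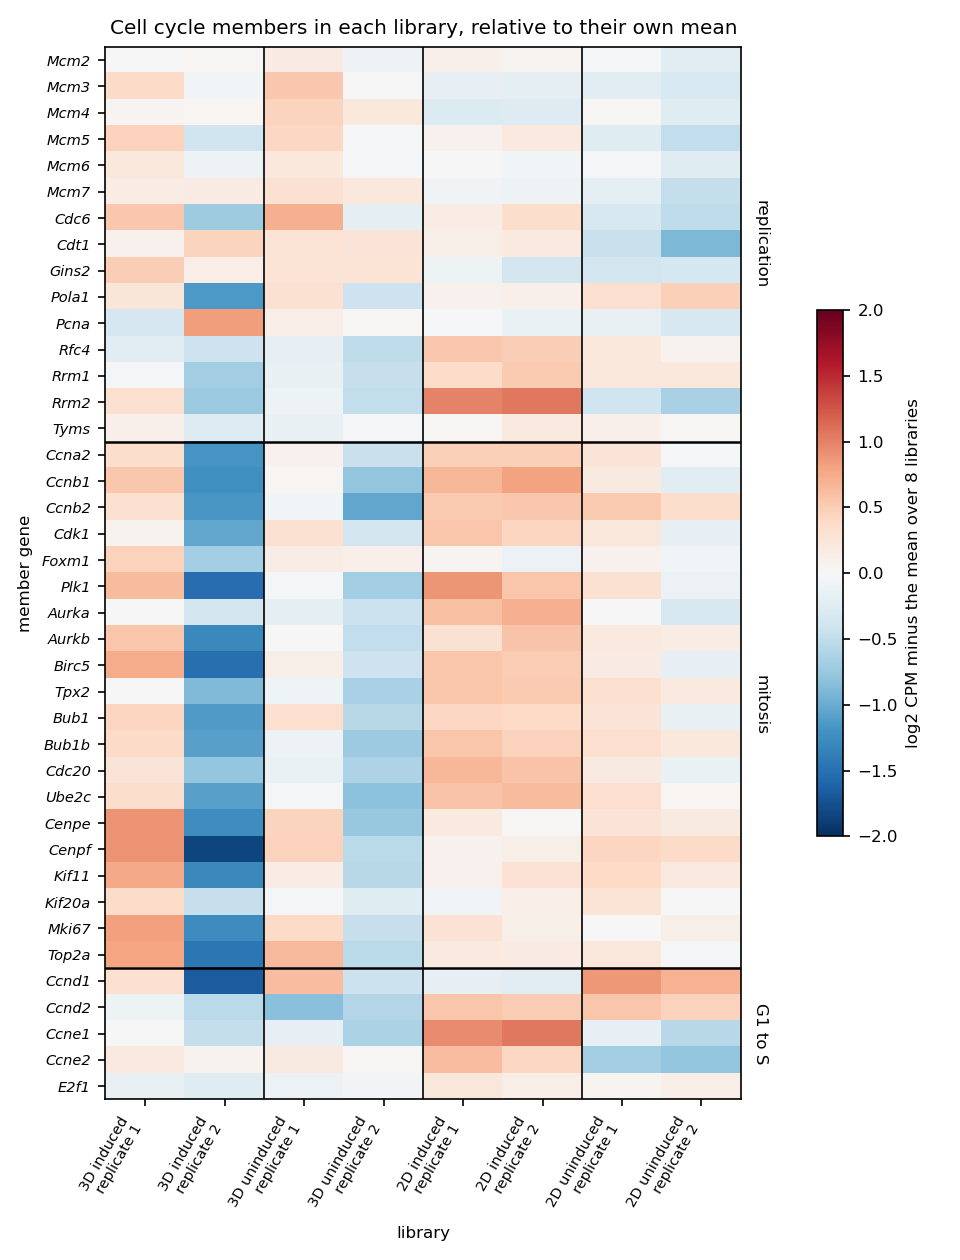
Level of each of the 40 members (rows, by class) in the 8 libraries (columns), as log2 CPM minus the member's mean over the libraries. The mitosis rows are lowest in 3D induced replicate 2 (median -1.18) and higher in 3D induced replicate 1 (0.44) and the 2D induced libraries (0.50 and 0.47), and Rrm2, Ccne1 and Ccne2 peak in the 2D induced columns.

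Whether induction acted differently in spheroids and in flat culture was tested as the interaction, the induction effect in 3D minus that in 2D. No member passed, where 0.341% of all tested genes were called lower and 0.0393% higher (0.347% and 0.0393% at any fold). At an unadjusted p under 0.05, 5 members were lower and 0 higher, against 4.59% and 3.27% of all tested genes, limma-voom called 0 and DESeq2 called 1 lower, Ccne2 (adjusted p = 0.0347). Ccne2 also had the smallest adjusted p in edgeR's test, with a difference of -1.24 ± 0.23 (adjusted p = 0.0969), followed by Ccne1 (-1.18 ± 0.33, adjusted p = 0.336) and Rrm2 (-1.38 ± 0.44, adjusted p = 0.445). The difference for Cdt1 was -0.80 ± 0.27 (adjusted p = 0.483) and for Aurka -0.66 ± 0.28 (adjusted p = 0.631). Ccnd2 leaned the other way at 0.38 ± 0.23 (adjusted p = 0.777). By the main edgeR fit, the rise of Rrm2, Ccne1 and Ccne2 in flat culture is thus not shown to differ from their change in spheroids. Other fits to all 8 libraries were split. DESeq2 called Ccne2, and edgeR with no filter on low counts called Ccne1 (adjusted p = 0.00634) and Ccne2 (adjusted p = 0.0125). In that unfiltered fit, 0.639% of all genes were called lower.

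Leaving out an induced spheroid library changed this test. Without replicate 1, 9 members were called lower (Mcm5, Cdc6, Rrm2, Ccna2, Plk1, Aurkb, Birc5, Ccne1 and Ccne2), against 2.58% of all tested genes in that fit. Without replicate 2, Ccne2 was called (-1.17, adjusted p = 0.00295), against 1.97% of all tested genes. Rrm2 and Ccne1 then passed the adjusted p at less than 2-fold, at -0.93 (adjusted p = 0.00489) and -0.95 (adjusted p = 0.0259). In every alternative fit the difference stayed negative for Ccne1, Ccne2 and Rrm2, but for each gene it passed the adjusted p in some of these fits and not in others. The mitosis median of the interaction was -1.24 without replicate 1 and 0.39 without replicate 2.

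Cell cycle inhibitors, which restrain the cyclin-dependent kinases or hold E2F genes silent, were set beside the members. The list includes the MuvB subunits Lin9, Lin52 and Lin54, although MuvB also acts in the mitotic wave described above, so their changes do not mark inhibition alone. Of 17 such genes, 16 had enough counts, and Cdkn1c had 0 or 1 count in a library. Cdkn1a, which encodes the inhibitor p21, had 178 and 351 CPM in 3D induced, 126 and 165 CPM in 3D uninduced, 182 and 192 CPM in 2D induced and 193 and 197 CPM in 2D uninduced libraries. Its highest value was in 3D induced replicate 2, the library with the lowest mitosis levels, and the induction effect in spheroids did not pass the test (0.87 ± 0.28, adjusted p = 0.237). Btg2, an antiproliferative gene, was also highest there, at 46.9 CPM against 16.2 CPM in replicate 1. The inhibitors as a list did not share this. Over the 16 tested, the median log2 ratio of 3D induced replicate 2 over replicate 1 was 0.03, and 7 were lower in replicate 2. At least 2-fold higher there was 1 of 16, against 4.46% of all tested genes.

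Cdkn2a, which encodes the inhibitors p16 and p19Arf, had 249 and 278 CPM in 3D induced, 258 and 294 CPM in 3D uninduced, 456 and 441 CPM in 2D induced and 489 and 503 CPM in 2D uninduced libraries. It passed the adjusted p downward at less than 2-fold in spheroids with induction (-0.77 ± 0.11, adjusted p = 0.00334) and without it (-0.84 ± 0.11, adjusted p = 0.00315). Cdkn2d, another inhibitor of the cyclin D kinases, was the only one called, and fell in 3D induced against 2D induced cultures (-1.16 ± 0.18, adjusted p = 0.00377). Its levels were 9.95 and 8.72 CPM in 3D induced, against 20.6 and 20.9 CPM in 2D induced libraries. Cdkn2c had 86.0 and 45.9 CPM in 3D induced, against 132 and 125 CPM in 2D induced libraries (-0.96 ± 0.25, adjusted p = 0.0252).

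In flat culture, 0 of 16 inhibitors were called on induction by edgeR, DESeq2 or limma-voom, and 6 were higher and 1 lower at an unadjusted p under 0.05. Btg1, an antiproliferative gene (0.73 ± 0.14, adjusted p = 0.017), E2f5, a repressor E2F (0.79, adjusted p = 0.0292), Rb1, the retinoblastoma gene (0.65 ± 0.15, adjusted p = 0.0332), and Lin9, a MuvB subunit (0.84, adjusted p = 0.0388), passed the adjusted p at less than 2-fold. Induction in spheroids changed 0 of 16, with 1 higher and 0 lower at an unadjusted p under 0.05 and 0 calls by DESeq2 and limma-voom. Without 3D induced replicate 1, 2 of the inhibitors were called higher in that comparison, against 2.86% of all tested genes. Lin9 (0.88, adjusted p = 0.0184) and Btg1 (0.78 ± 0.14, adjusted p = 0.0079) passed upward, and Cdkn2b (-0.62, adjusted p = 0.0294), Cdkn2d (-0.61, adjusted p = 0.0476) and the retinoblastoma relative Rbl2 (-0.41, adjusted p = 0.0267) downward, at less than 2-fold in 3D uninduced against 2D uninduced cultures. In 3D induced against 2D induced cultures Cdkn1b, which encodes the inhibitor p27 (-0.55, adjusted p = 0.0496), and Rbl2 (-0.56, adjusted p = 0.00683) passed downward at less than 2-fold. Rbl1, E2f4, Lin52, Lin54, Cdkn1a and Btg2 passed in none of the 5 comparisons.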

How the data were processed

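The authors deposited a matrix of raw counts of reads in each Ensembl gene for 8 RNA-seq libraries of 3T3-L1 cells, as whole numbers and without normalization. The submitters' processing notes name build mm10 and the programs HISAT2 (2.1.0), Trimmomatic (0.38), FastQC (0.11.7) and featureCounts (1.6.3). The sources used here do not give their settings, the annotation release or the strand setting. Of the 2D uninduced columns, the title numbers are used.

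Genes with too few counts were left out (filterByExpr, minimum count 10), and sizes were scaled by TMM. edgeR 4.0.16 (R 4.3.3, robust quasi-likelihood fit with group means and 4 residual degrees of freedom) tested 5 two-sided comparisons over 15255 genes with Benjamini-Hochberg adjustment. A call needed an adjusted p under 0.05 and at least 2-fold. Gene positions are from GENCODE vM21. In a check on simulated counts with known changes no recovered gene had the wrong sign. Alternatives used DESeq2 1.42.0, limma 3.58.1 (voom, also with group weights), other scalings and filters, no minimum fold, only the libraries compared, a replicate block, and leaving out each library. Same-numbered libraries deviated together only between the spheroid groups (correlation 0.206 over all tested genes and 0.787 over the members, against -0.00619 to 0.0265 over all tested genes elsewhere). The labels do not link libraries by number, and the main fit did not pair them. A link between same-numbered spheroid libraries alone was not tested, because the replicate block fits a single effect shared by every group.

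The members and lists were chosen with earlier results of these data known. Per-library values are given for 11 members chosen by name (Mki67, Top2a, Cdk1, Ccnb1, Mcm5, Pcna, Rrm2, Ccnd1, Ccnd2, Ccne1 and E2f1) and, in each comparison, for the 3 of each class with the smallest and the 1 with the largest p, with others added. No 2 libraries of a group were alike within counting noise.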

Additional observations from a re-analysis of the deposited data

How the results depend on the processing

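No member past the adjusted p changed sign under any setting, while the counts of calls and 23 of the class medians moved (244 medians did not). With no scaling beyond total counts, 2 members were called higher in 3D uninduced over 2D uninduced cultures (Cdt1 and Ccne2), but that setting moved the median of all genes by 0.20 in this comparison and 0.17 in the induced one, so relative to that shift neither reaches 2-fold. With group weights in limma-voom, 2 were called lower there (Ccnb2 and Ccnd2), and with only the 4 induced libraries, 1 was called lower in 3D induced against 2D induced cultures (Ccne1). The interaction gained 2 lower calls with no filter on low counts (Ccne1 and Ccne2) and 1 with DESeq2 (Ccne2). With no minimum fold, 5 members were higher on induction in 2D, 4 were higher in uninduced spheroids, and 1 was higher and 8 were lower in induced spheroids. The cause of these shifts was not tested. Calls among all tested genes also moved when a library was left out. Leaving out 1 library at a time gave 0 to 3 members higher on induction in 2D, 0 to 8 lower on induction in 3D, 0 to 1 higher and 1 lower in uninduced spheroids, 0 to 21 lower in induced spheroids and 0 to 9 lower in the interaction, and 0 for the other counts. The replicate block changed no count: 3 members were again called higher on induction in 2D, 1 lower in uninduced and 2 lower in induced spheroids, with 0 in the interaction. The 19 results past the adjusted p passed it in 239 of 342 alternative fits, from 6 of 18 (E2f1 in induced spheroids) to 18 of 18 (Ccnd2 in uninduced spheroids). The 6 called results kept their call in 85 of 108. With 2 libraries in each group and 1 spread per gene shared by groups of unequal spread, small changes could not be resolved.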
